A study of Mus musculus with 4 samples.

Results

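A set of 9 genes of the serpin superfamily of protease inhibitors was followed across RNA of activated mouse CD8+ T cells. They were 9 of the 49490 genes of the deposited table and 9 of its 68 genes with a Serpin symbol. The 9 were chosen by name, 5 of clade A3 and 4 of clade B, because 1 of them, Serpina3e-ps, lost all its reads in the columns labelled knockout. They were thus selected on the same contrast that is described here, so their differences are given as a description, the count of members that passed a threshold is printed only beside the share of all genes that did, and neither supports anything. The members are Serpina3e-ps, Serpina3f, Serpina3g, Serpina3h, Serpina3i, Serpinb1a, Serpinb6a, Serpinb6b and Serpinb9. The CD8+ T cells came from spleens and lymph nodes and were activated in vitro before polyadenylated RNA was sequenced. The study set out to find genes regulated by Irf8, which encodes interferon regulatory factor 8. One group of 2 libraries, labelled WT, has the genotype Irf8fl/fl, a floxed allele. The other group of 2 libraries, labelled Irf8 knockout, is Irf8-/-. The labels give no strain, age, Cre driver, number of animals, activating agent or time in culture, and they do not tie the 2 libraries of a group to separate mice or cultures, so p-values measure only the spread between these libraries.

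Serpins are proteins that most often inhibit proteases by a suicide mechanism. An exposed stretch near the end of the protein, the reactive centre loop, serves as bait, is cut by the protease, and then inserts into a sheet of the serpin, which traps the enzyme. The sequence of the loop sets which proteases are caught, and the hinge at its start must be made of small residues for the insertion to work. Clade B serpins stay in the cytosol and nucleus and protect cells from proteases that escape from granules. Cytotoxic T cells are a textbook case, since they store granzymes and need Serpinb9 against their own granzyme B. The clade A3 genes of the mouse arose by repeated duplication of a relative of human alpha-1-antichymotrypsin, and Serpina3g, also called Spi2A, is known for inhibiting lysosomal cathepsins and for its part in the survival of memory CD8+ T cells.

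The reactive centre loops are shown because they are the part in which the copies differ most in function. In addition, 2 of the least abundant copies are nearly alike in the loops. The loops are bases of GENCODE M21 transcripts on GRCm38, the assembly also called mm10, written 5′ to 3′ along each gene. They were found by a search for the hinge pattern in translations of the transcripts. Serpina3e-ps and Serpina3h are annotated as pseudogenes, so their stretches match the loop but are not annotated as coding. In the clade A3 set, capitals mark bases that differ from Serpina3e-ps, or stand opposite a gap in it, in the pairwise alignment. Bases of Serpina3e-ps that are missing from another loop leave no mark. Each loop lies in 1 exon: Serpina3e-ps at chr12:104189586-104189675 on the minus strand, and on the plus strand Serpina3i at chr12:104268480-104268569, Serpina3h at chr12:104253511-104253600, Serpina3f at chr12:104220245-104220337 and Serpina3g at chr12:104241072-104241161.
Serpina3e-ps: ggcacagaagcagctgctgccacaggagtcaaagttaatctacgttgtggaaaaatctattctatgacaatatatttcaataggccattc
Serpina3i: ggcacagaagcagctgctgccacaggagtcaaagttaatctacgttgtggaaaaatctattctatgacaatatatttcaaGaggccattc
Serpina3h: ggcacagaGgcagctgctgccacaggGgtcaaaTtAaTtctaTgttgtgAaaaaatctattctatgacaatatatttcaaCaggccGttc
Serpina3f: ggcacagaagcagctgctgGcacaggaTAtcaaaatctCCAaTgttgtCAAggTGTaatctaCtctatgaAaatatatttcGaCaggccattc
Serpina3g: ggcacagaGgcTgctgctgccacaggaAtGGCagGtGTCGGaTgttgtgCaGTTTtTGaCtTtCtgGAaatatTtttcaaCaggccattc

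The loop of Serpina3i differed from that of Serpina3e-ps at 1 of 90 bases. Serpina3h differed at 9 bases and Serpina3f at 10 bases, with another 11 gap bases in its alignment. Serpina3g, the most abundant of the clade, differed at 27 of 90 bases. Only 2 of these lay in the first 21 bases, the hinge.

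In the clade B loops, capitals mark the first 21 bases, the 7 codons of the hinge that begins each loop. Serpinb9 lies at chr13:33015699-33015782 and Serpinb6b at chr13:32978207-32978287, both on the plus strand. Serpinb6a lies at chr13:33918107-33918193 and Serpinb1a at chr13:32842884-32842970, both on the minus strand.
Serpinb9: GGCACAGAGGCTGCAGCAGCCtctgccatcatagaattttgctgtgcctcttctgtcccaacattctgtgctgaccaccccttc
Serpinb6b: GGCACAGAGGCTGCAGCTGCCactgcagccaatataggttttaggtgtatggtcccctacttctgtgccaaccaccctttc
Serpinb6a: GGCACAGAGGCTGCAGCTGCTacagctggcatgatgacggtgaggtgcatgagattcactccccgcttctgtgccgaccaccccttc
Serpinb1a: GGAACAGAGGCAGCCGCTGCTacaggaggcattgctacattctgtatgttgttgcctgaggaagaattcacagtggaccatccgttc

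Across the 4 genes the hinge differed at 5 of 21 positions, each of them the third of a codon. The bait that follows it differed in length, and the loops measured 84, 81, 87 and 87 bases. Over the bases that could be aligned between transcripts, pairs of clade A3 members were 87.5% to 91.5% identical. Pairs of clade B members were 63.3% to 81.5% identical, with Serpinb6a and Serpinb6b the closest pair.

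Promoter stretches are shown for the 3 clade A3 members with a RefSeq promoter, in which the same motif lies in similar surroundings, and for Serpinb9. RefSeq promoters of GRCm38.p6, running from 250 bases before to 50 bases after the start, were matched by symbol for 6 of the 9 members. Both strands were searched for an interferon response core (GAAANNGAA), a composite element of the kind bound by interferon regulatory factors with ETS partners (GGAANNGAA), a STAT motif (TTCNNNGAA) and an NF-kB motif. Of 32851 mouse promoters of this length, 8.56% held the first, 8.24% the second, 8.30% the third and 4.51% the NF-kB motif. Capitals mark the matches in 84-base stretches of Serpina3f (chr12:104214363-104214446), Serpina3g (chr12:104236054-104236137), Serpina3i (chr12:104262960-104263043) and Serpinb9 (chr13:33004436-33004519), all on the plus strand.
Serpina3f: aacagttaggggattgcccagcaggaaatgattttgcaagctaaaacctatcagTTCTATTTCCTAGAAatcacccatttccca
Serpina3g: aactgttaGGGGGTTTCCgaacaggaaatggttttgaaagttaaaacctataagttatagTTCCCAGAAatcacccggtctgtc
Serpina3i: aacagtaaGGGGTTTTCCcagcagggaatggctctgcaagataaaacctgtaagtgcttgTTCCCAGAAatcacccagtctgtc
Serpinb9: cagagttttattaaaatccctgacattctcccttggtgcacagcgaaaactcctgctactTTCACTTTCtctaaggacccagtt

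A STAT motif began 121, 33 and 102 bases before the start of Serpina3f, Serpina3g and Serpina3i, inside stretches that were 76.2% to 82.1% identical between pairs. An NF-kB motif stood 52 bases ahead of it in both Serpina3g and Serpina3i. In Serpina3f the interferon response core overlapped the STAT motif by 3 bases, which gives 1 run of capitals. The 121 bases of Serpina3f are counted from its upstream start. From its other RefSeq start, the STAT motif began 210 bases before. Serpinb9 had an interferon response core 45 bases before its start. Serpinb6b had none of the motifs in this window. Serpinb6a had an interferon response core and a STAT motif, again overlapping, at 83 and 77 bases before its upstream start. A further STAT motif lay 20 bases after that start, and the other Serpinb6a promoter held an interferon response core 4 bases after its start. The composite element was in none of the members' windows and was in that of Serpinb9b, 49 bases before the start. These are matches of letters and show no binding.

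The libraries held 58899365 and 59724952 reads in the group labelled WT and 59091255 and 59489280 in the group labelled knockout, so depth differed little. Irf8 itself went against the labels: its normalized counts were 6364 and 6081 in the WT-labelled libraries and 89508 and 90222 in those labelled knockout, 14.4-fold higher. A count over the whole gene does not show which exons the reads came from. Groups are therefore called by their labels throughout. By limma across all genes, with an adjusted p of 0.05 as the threshold (6131 genes passed), T cell markers fell in the libraries labelled knockout for 16 of 17 genes, all but Trac, and their sum went from 15785 to 16118 RPM, reads scaled to library size, in the libraries labelled WT to 12032 to 12177 in those labelled knockout. Markers of plasmacytoid dendritic cells were higher for 15 of 16 genes, with sums of 340 to 354 against 5481 to 5490 RPM, and none of their defining genes was at 0 in either group. Conventional dendritic cell markers were higher for 12 of 13 genes, with sums of 814 to 821 against 8033 to 8126 RPM. Neutrophil markers rose from sums of 3.89 to 4.45 to 60.3 to 62.1 RPM (10 of 10 tested), with Elane, Mpo and Camp at 0 in both libraries labelled WT. Ly6g, also listed, was too low to test and did not rise, with 0 and 6.13 normalized counts against 4.90 and 0. B cell markers were higher for 3 of 9 tested genes, with sums of 4.81 to 5.30 against 25.0 to 25.3 and Ebf1 at 0 in the libraries labelled WT. For macrophages 2 of 13 markers were higher and 7 lower, with sums of 298 to 320 against 397 to 405. NK cell markers were higher for 1, Tyrobp, and lower for 3 of 8 tested, Klrb1c, Klrk1 and Eomes. Their sums were 883 to 922 against 1456 to 1464. The higher sum rests on Tyrobp, with 1414 and 1379 normalized counts against 48484.6 and 49110.5, while Klrk1 had 36802 and 35220 against 24148 and 23983. In bulk RNA, fewer cells of a type and less RNA per cell cannot be told apart, and the part of other cells in the serpin values was not tested.

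Serpina3e-ps is an unprocessed pseudogene, a duplicated copy not annotated to make a protein, at chr12:104189517-104192926 on the minus strand. It had 154 and 176 normalized counts in the libraries labelled WT, and was listed at 0 in each library labelled knockout. The mean of 165 ± 15.5 (SD, n = 2) stood against a floor of 2.93, the normalized value of 3 reads. For counting error alone, that puts the libraries labelled knockout at least 56.2-fold lower. Serpina3e-ps was chosen for these 0 values, so this bound is a description only. The authors' deposited table gives Serpina3e-ps a log2 fold change of 9.84 for WT over knockout with a standard error of 1.52. Only 151 and 172 reads lay behind the 2 values above 0. Serpina3h, also annotated as a pseudogene but a transcribed one (chr12:104247905-104253669), was a close match in level, with 176 and 149 normalized counts against 94.1 and 114. Its groups did not overlap, and its log2 difference was -0.64 ± 0.21 (SE), where differences on this scale are those of log2(normalized count + 1) and labelled WT is subtracted from labelled knockout. The 2 pseudogenes, alike in level in the libraries labelled WT, thus had different values in those labelled knockout.

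Serpina3i, a protein-coding copy (chr12:104263122-104269372), was listed at 0 in replicate 1 labelled WT and had 90.9 normalized counts in replicate 2. Its values labelled knockout, 60.7 and 70.1, fell between these, so the groups overlapped. The log2 difference of 2.79 ± 2.44 (SE) rests on the 0 of 1 library, and without that library the difference was -0.47. Without replicate 2 labelled WT it was 6.05, so either direction can be had by leaving out 1 library. Copies that share stretches of sequence make these low values uncertain. Of the 50-base stretches of the Serpina3e-ps transcript, 21.6% also occur in another gene's transcript, and the share was 24.4% for Serpina3h and 15.4% for Serpina3i. For 100-base stretches the shares fell to 5.05%, 4.21% and 2.33%. Serpina3e-ps did not share mainly with Serpina3i. At 50 bases it shared 8.82% with Serpina3g and 7.97% with each of Serpina3f and Serpina3i. No 100-base stretch of Serpina3e-ps was shared with Serpina3i. The largest 50-base share of Serpina3i, 9.21%, was with Serpina3h. The read length is not given in the sources used here, nor is the way shared reads were assigned. Added together, Serpina3e-ps and Serpina3i, which were 91.4% identical, had 154 and 267 normalized counts in the WT-labelled libraries and 60.7 and 70.1 in those labelled knockout. The sum did not overlap between groups, and it had 31.1% of its labelled WT mean left in the libraries labelled knockout. With Serpina3h added, the sums were 330 and 416 against 155 and 184, with 45.5% left. Serpina3e-ps was chosen for its 0 values, which enter both sums, so both are descriptions only. How far the 0 values of Serpina3e-ps or Serpina3i come from the assignment of shared reads was not tested.

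**Figure D1:**
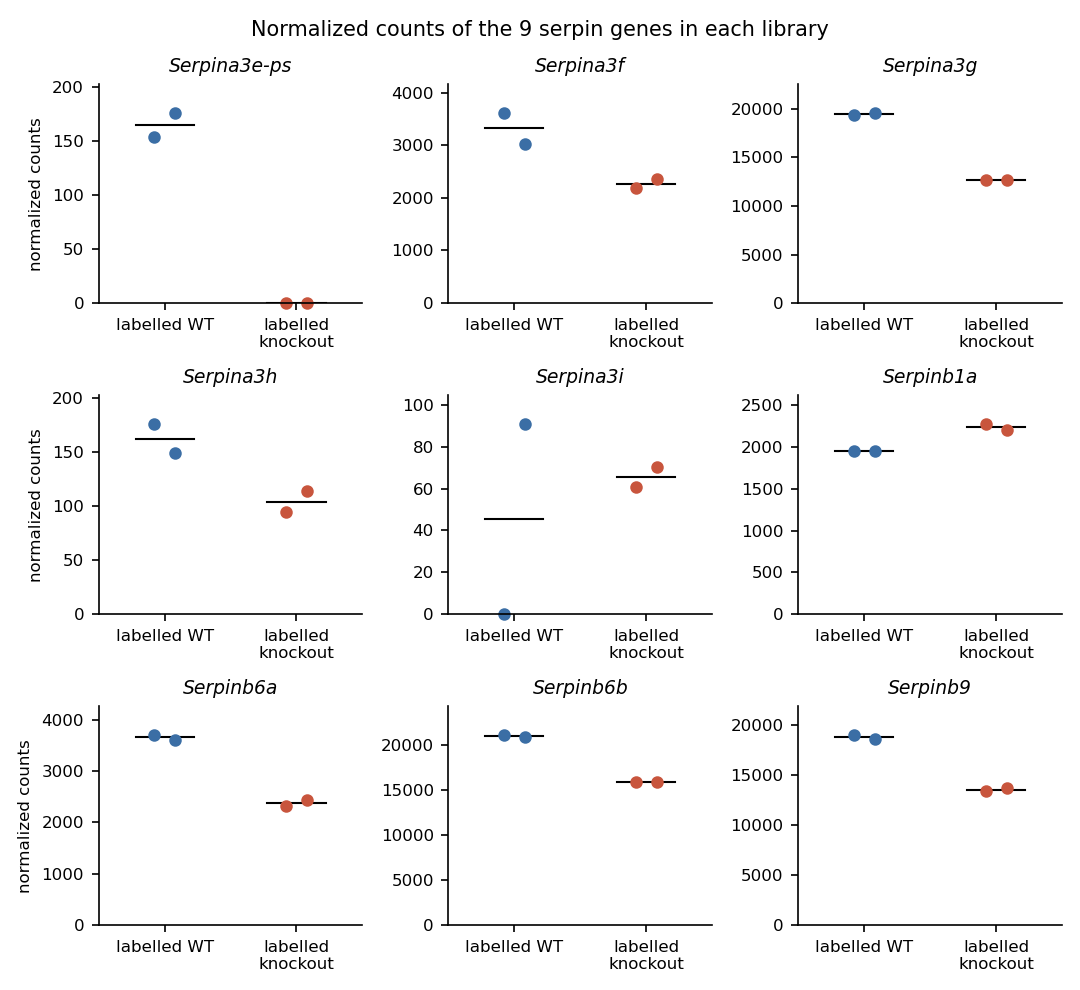
Normalized counts (vertical axes from 0, a separate scale for each gene) of the 9 serpin genes in the 2 libraries labelled WT (blue) and the 2 labelled knockout (red), with black lines at the group means. Serpina3e-ps is at 0 in both libraries labelled knockout, Serpina3i is at 0 in 1 library labelled WT, and Serpinb1a alone has both red points above both blue points.

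Serpina3g (chr12:104236245-104241939) was the main clade A3 transcript. It had 19346 and 19586 normalized counts in the WT-labelled libraries and 12665 and 12671 in those labelled knockout. The replicates nearly coincided and the groups were far apart, at 65.1% of the labelled WT mean and a log2 difference of -0.62 ± 0.03 (SE). Serpina3f (chr12:104214544-104221129), a close relative that also codes for protein, had 3615 and 3028 normalized counts against 2187 and 2352. Its 2 libraries labelled WT differed more from each other than those of Serpina3g, and its log2 difference was -0.54 ± 0.09 (SE). Of 50-base stretches, 16.0% were shared with another gene for Serpina3g and 10.7% for Serpina3f.

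Summed over the 5 clade A3 members, the normalized counts were 23290.2 and 23029 in the WT-labelled libraries and 15007 and 15207 in those labelled knockout, with 65.2% left. For the 4 clade B members the sums were 45670.5 and 44917 against 33813 and 34104, with 75.0% left. Neither sum overlapped between groups. Taken as RPM, without the authors' scaling, the shares left were 68.1% and 78.3%.

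Serpinb9 (chr13:33003250-33017957), the inhibitor of granzyme B, had 18966 and 18536 normalized counts in the WT-labelled libraries and 13374 and 13628 in those labelled knockout. That is 72.0% of the labelled WT mean and a log2 difference of -0.47 ± 0.03 (SE). Serpinb6b (chr13:32965209-32979067), known in the mouse as an inhibitor of granzyme A, had 21052 and 20823 normalized counts against 15836 and 15829. It was the member with the most reads in every library, and its log2 difference was -0.40 ± 0.03 (SE). For both genes all 100-base stretches were found in no other gene of the annotation.

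Serpinb6a (chr13:33917918-34002794), an inhibitor of cathepsin G, had 3699 and 3609 normalized counts in the WT-labelled libraries and 2326 and 2437 in those labelled knockout, a log2 difference of -0.62 ± 0.06 (SE). An antisense gene, 1110046J04Rik, overlaps it and shares 12.2% of its 100-base stretches. The use of strand is not given in the sources used here, so their reads may be mixed. 1110046J04Rik had only 57.0 and 102 normalized counts against 38.2 and 48.7. Serpinb1a (chr13:32842092-32851185), an inhibitor of neutrophil elastase, cathepsin G and proteinase 3, had the opposite direction, with 1953 and 1949 normalized counts against 2277 and 2210. Both libraries labelled knockout were above both labelled WT, by a log2 difference of 0.20 ± 0.06 (SE). The direction flips to -0.10 when each library is centred on its median, a scaling that shifted the median over all genes tested from 0.02 to -0.28.

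By limma over all 18378 genes tested, 6 of the 9 members passed an adjusted p of 0.05 as lower in the libraries labelled knockout, against 13.4% of all genes, and 1 of 9, Serpinb1a, as higher, against 19.9%. Serpina3h and Serpina3i did not pass, but Serpina3h passed as lower with median centring, with upper-quartile factors and without replicate 2 labelled WT, and Serpina3i passed as higher without replicate 2 labelled WT. Serpinb1a passed neither by edgeR nor by DESeq2 nor with any 1 library left out. All values labelled knockout lay below all labelled WT for 7 of the 9, against 32.3% of all genes, and above them for 1 of 9, against 36.5%. Because the members were selected on this contrast, nothing is read from these counts. The split of all calls depends on the scaling: 59.7% of called genes were higher with the deposited scaling, 47.0% with upper-quartile factors and 24.9% after median centring. The median log2 difference of the members was -0.54, which is 68.3% of the labelled WT level, beside 0.02 for all genes and -0.60, or 65.9%, for the 17 T cell markers. Those markers ranged from 57.2% of the labelled WT level for Cd3d to 99.3% for Trac, with Cd3e at 61.9%, Cd8b1 at 65.9% and Cd8a at 79.8%. The range of the 5 most abundant members that were lower, from 65.1% for Serpina3g to 75.6% for Serpinb6b, lay inside that range, above some markers and below others. Serpinb1a at 115%, Serpina3i at 144% and Serpina3e-ps at 0% lay outside it. Because the 5 were taken for being lower, nothing is read from their place in that range.

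**Figure D2:**
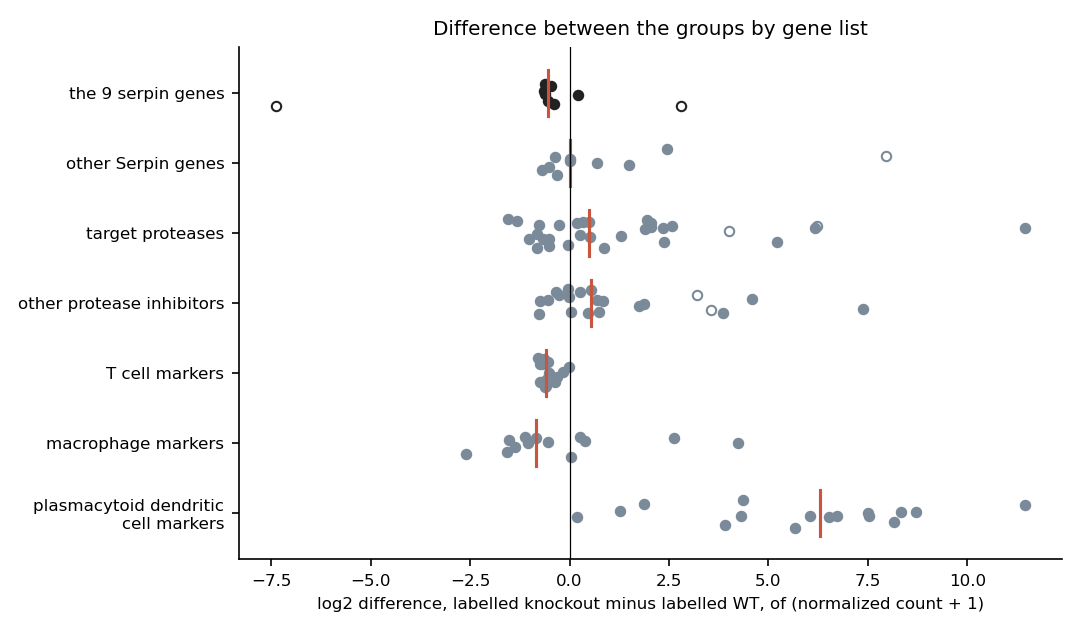
Log2 difference of each gene (horizontal axis, labelled knockout minus labelled WT, of normalized count + 1) by gene list, with red bars at the list medians and open circles for genes at 0 in at least 1 library. The bar of the 9 serpin genes (-0.54) lies close to that of the T cell markers (-0.60). All 16 plasmacytoid dendritic cell markers lie to the right of 0, the lowest, Il3ra, at 0.18.

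The 9 genes spanned a wide range of levels. In RPKM, which scales reads to exon length and library size, Serpinb6b stood at 155 and 151 in the WT-labelled libraries and Serpina3g at 153 and 153. These 2 overlapped. Serpinb9 followed at 90.6 and 87.0, then Serpina3f at 26.3 and 21.7, Serpinb1a at 14.1 and 13.9, and Serpinb6a at 11.4 and 10.9. The last 3 were Serpina3e-ps at 2.09 and 2.35, Serpina3h at 2.05 and 1.70, and Serpina3i at 0 and 0.67. The pseudogene that was lost thus never made up more than 0.26% of the members' reads. On the same exon lengths the first 6 had this order in the libraries labelled knockout too, with Serpinb6b at 121 and 121 and Serpina3g at 104 and 104, no longer overlapping. Serpinb1a at 17.1 and 16.6 came to overlap Serpina3f at 16.5 and 17.7. The order depends on the length used. Over the longest transcript of each gene Serpina3g, at 179 and 178, stood above Serpinb6b, at 160 and 156, in the libraries labelled WT, and Serpinb6b, at 125 and 125, above Serpina3g, at 121 and 121, in those labelled knockout. On that length Serpinb6a stood at 28.2 and 27.0 in the libraries labelled WT, above Serpina3f, and in those labelled knockout Serpinb1a stood above both. Serpinb6b, Serpina3g and Serpinb9 together held most of the members' reads in every library: the share of Serpinb9 was 27.5% and 27.3% against 27.4% and 27.6%, that of Serpina3g 28.1% and 28.8% against 25.9% and 25.7%, and that of Serpinb6b 30.5% and 30.6% against 32.4% and 32.1%.

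**Figure D3:**
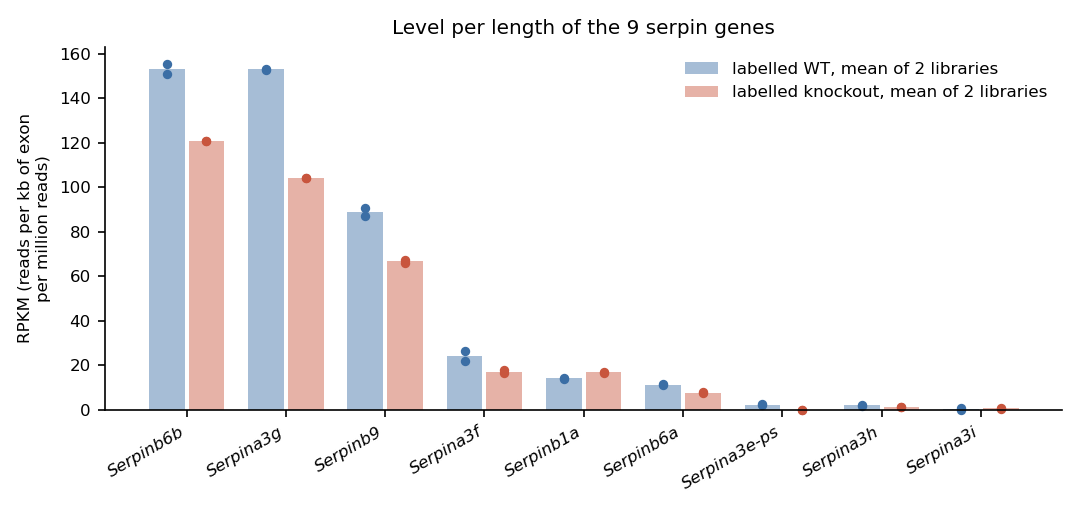
Level of each serpin gene (vertical axis, RPKM, reads scaled to exon length and library size), as group means (bars) and single libraries (points), in order of the labelled WT mean. Serpinb6b and Serpina3g stand at about the same level in the libraries labelled WT (153 and 153 on average) on this exon length, though not over the longest transcript (158 and 179), and the 3 genes at the right stay below 3.

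The members sit in 2 gene clusters. The clade A3 cluster on chromosome 12 runs over 301.6 kb and 14 serpin genes, from Serpina3a to Serpina3n. Its 5 members are neighbours in the middle, with only a processed pseudogene, Gm8918, between them. Of the other 9 serpin genes, 8 had 0 reads in all 4 libraries and Serpina3n had reads in 1 library only, 12.7 normalized counts in replicate 1 labelled knockout. The clade B cluster on chromosome 13 runs over 1160.7 kb with 16 serpin genes. Its members are not neighbours: Serpinb1a and Serpinb6a mark its ends, and Serpinb6b and Serpinb9 lie near the first. Between them 6 genes (Serpinb9d, Serpinb9e, Serpinb9f, Serpinb9g, Serpinb6d and Serpinb6e) had 0 reads in all 4 libraries, and Serpinb1-ps1, Serpinb1c, Serpinb9c and Serpinb6c had at most 6.13 normalized counts. A count of 0 allows up to 3 reads per library. Serpinb9b, the neighbour of Serpinb9, had 2948 and 2857 normalized counts in the WT-labelled libraries and 1819 and 1778 in those labelled knockout. Serpinb1b, which lies beyond it, had 111 and 124 against 122 and 114, with overlapping groups.

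**Figure D4:**
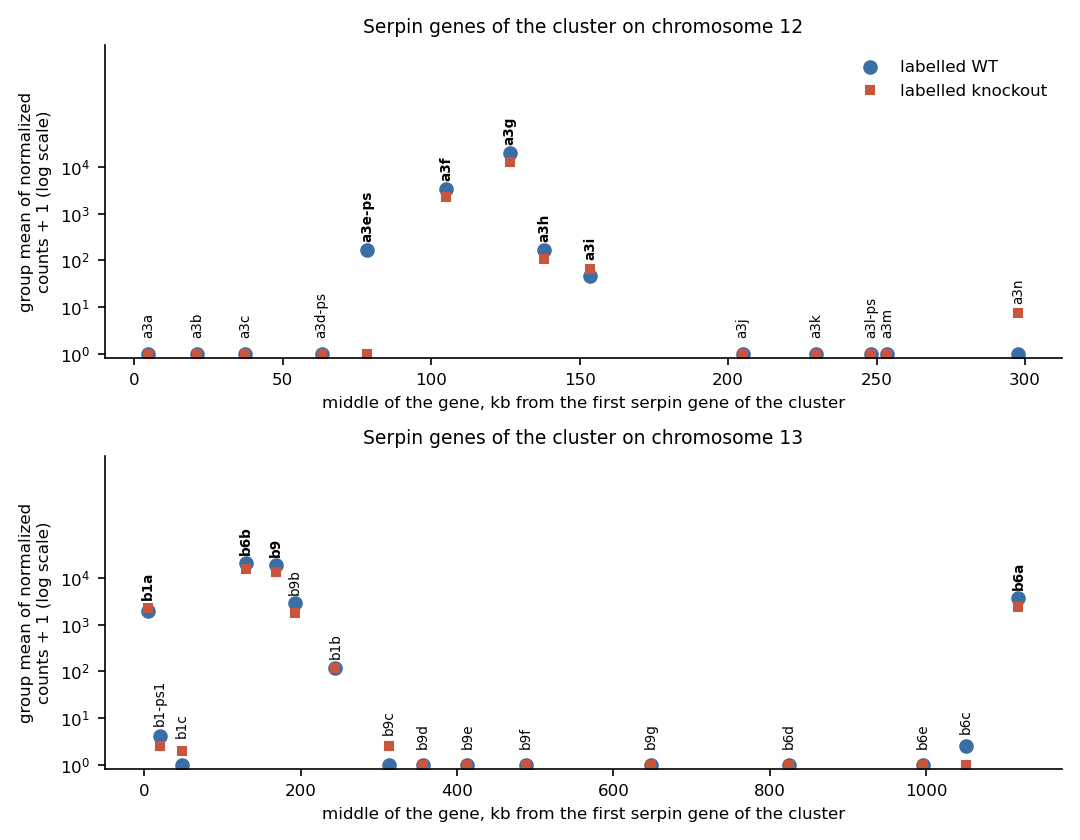
Mean normalized counts plus 1 (log axis) of the serpin genes of the clusters on chromosomes 12 and 13 against distance in kb, with circles for libraries labelled WT, squares for those labelled knockout, and the 9 genes described here in bold. Serpins with a mean above 10 normalized counts form 1 block of 5 neighbours on chromosome 12, and those on chromosome 13 lie toward both ends.

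The rest of the family was taken by symbol alone. Of 59 other genes with a Serpin symbol, 34 had 0 reads in all libraries, 25 had reads, and 10 were abundant enough to test. Of these 10, 2 fell and 2 rose in the libraries labelled knockout, against 13.4% and 19.9% of all genes, and their median log2 difference was 0.02. Serpinb9b fell by 0.69 ± 0.06 (SE) on the log2 scale (adjusted p = 0.00029, limma). Its ratio to Serpinb9 also moved, since Serpinb9 had 6.43 and 6.49 times its normalized counts in the WT-labelled libraries and 7.35 and 7.66 times in those labelled knockout. Serpine2, which encodes the thrombin and plasminogen activator inhibitor protease nexin-1, had 4285 and 4433 normalized counts against 3327 and 3690. It fell by 0.31 ± 0.06 (SE) on the log2 scale (adjusted p = 0.0117, limma). Without replicate 1 labelled knockout its difference was -0.24 with an adjusted p of 0.0665 by limma, past the threshold no more.

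Both serpins that rose encode proteins that do not inhibit proteases. Serpinh1, the collagen chaperone HSP47, had 10.2 normalized counts in replicate 1 labelled WT and 0 in replicate 2, against 809 and 848 in the libraries labelled knockout (adjusted p = 0.00976, limma). Its log2 difference of 7.95 rests on those few WT-labelled reads, and was 9.70 without replicate 1 labelled WT and 6.21 without replicate 2. Its adjusted p by limma was 0.0710 without replicate 1 labelled knockout and 0.0728 without replicate 2, and 0.0595 with a pseudocount of 0.1. Serpinf1, which encodes pigment epithelium-derived factor, had 109 and 83.7 normalized counts against 542 and 514, and rose by 2.45 ± 0.18 (SE) on the log2 scale (adjusted p = 0.000166, limma). The plasmacytoid dendritic cell marker Siglech was higher in the same libraries, with 210 and 194 against 84171 and 84408. The other 6 tested, Serpinb8, Serpinc1, Serping1, Serpini1, Serpinb1b and Serpind1, did not pass, with adjusted p from 0.249 for Serping1 to 0.970 for Serpinb1b (limma). Serpinc1 and Serping1 did pass, as higher, when replicate 2 labelled WT was left out (adjusted p = 0.00408 and 0.0203, limma).

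Proteases that serpins inhibit, or that share a compartment with those, moved in both directions. Of 34 listed genes, 31 were tested, 17 rose, 11 fell and 3 did not pass, against 19.9% higher and 13.4% lower among all genes. The median log2 difference was 0.49. Among those that rose, Klk1 is also listed as a plasmacytoid dendritic cell marker and Elane as a neutrophil marker. Granule proteases were among those that fell. Gzmb, granzyme B and the target of Serpinb9, had 77939 and 79326 normalized counts against 45062 and 44241, and fell by 0.82 ± 0.03 (SE) on the log2 scale (adjusted p = 5.1e-06, limma). Gzmk had 17678 and 17102 against 9887 and 9875 (adjusted p = 1.63e-05, limma). Ctsw, a cathepsin of cytotoxic lymphocytes, had 50303 and 52693 against 32601 and 32059 (adjusted p = 2.86e-05, limma). Gzma, granzyme A and the target of Serpinb6b, had 23494 and 24992 against 15593 and 16867, a log2 difference of -0.58 ± 0.05 (SE, adjusted p = 0.000335, limma). These falls stood beside lower T cell markers in the same libraries.

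Lysosomal cysteine proteases, the targets of Serpina3g, were among those that rose. Ctsb had 19635 and 19344 normalized counts in the WT-labelled libraries and 79587 and 81344 in those labelled knockout, 4.13-fold higher (adjusted p = 2.06e-07, limma). Ctsl had 641 and 644 against 24146 and 23505, 37.1-fold higher (adjusted p = 4.32e-08, limma). Ctsh had 407 and 462 against 31848 and 30572, 71.9-fold higher (adjusted p = 8.66e-08, limma). Of the neutrophil proteases that Serpinb1a and Serpinb6a inhibit, Elane was listed at 0 in both libraries labelled WT and had 97.0 and 56.5 normalized counts in those labelled knockout. Prtn3 had 18.3 and 6.13 against 57.8 and 62.3, and Ctsg, with 0 and 0 against 9.80 and 15.6, was too low to test. Prtn3 passed with all libraries (adjusted p = 0.0186, limma) but not when a library labelled knockout was left out, with adjusted p up to 0.08. The part of dendritic and neutrophil transcripts in these increases was not tested.

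Set against their targets within each library, the inhibitors differed. Serpinb9 had 0.243 and 0.234 times the normalized counts of Gzmb in the WT-labelled libraries and 0.297 and 0.308 times in those labelled knockout. Serpinb6b had 0.896 and 0.833 times those of Gzma against 1.02 and 0.938 times. Both inhibitors thus made up more relative to their granzyme in the libraries labelled knockout, and neither pair of values overlapped. Serpina3g had 0.985 and 1.01 times the normalized counts of Ctsb against 0.159 and 0.156 times, and 30.2 and 30.4 times those of Ctsl against 0.525 and 0.539 times. Here the ratio was lower in the libraries labelled knockout. These are ratios of transcripts summed over all cells of a library and compare the 2 groups, not the amounts of the 2 genes, since lengths differ.

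Inhibitors of other families included genes that rose and genes that fell. Of 37 listed, 21 were tested, of which 8 rose, 3 fell and 10 did not pass, against 19.9% higher and 13.4% lower among all genes, with a median log2 difference of 0.53. Slpi, the secreted inhibitor of neutrophil elastase, had 63.1 and 42.9 normalized counts in the WT-labelled libraries and 8721 and 8748 in those labelled knockout, 165-fold higher (adjusted p = 1.4e-06, limma). Cst3, cystatin C, had 8839 and 8924 against 31546 and 32886 (adjusted p = 5.94e-07, limma). Timp2, an inhibitor of matrix metalloproteases, had 174 and 137 against 2244 and 2235 (adjusted p = 7.58e-06, limma). Cst7, cystatin F of cytotoxic lymphocytes, fell, with 22055 and 22738 normalized counts against 12870.0 and 13469 (adjusted p = 2.98e-05, limma). Reck and Itih5 also fell, by 0.54 and 0.73 on the log2 scale (adjusted p = 0.00124 and 0.00183, limma).

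The pattern of Serpina3e-ps, with 0 reads in both libraries labelled knockout and a mean of at least 30 normalized counts in those labelled WT, was seen in 4 genes of the table, with this rule as the measure of likeness over 4 libraries. Besides Serpina3e-ps these were Gm20388, with 0 and 272 normalized counts in the libraries labelled WT, Sftpc, a lung surfactant protein gene, with 37.7 and 76.6, and Gm28046, with 33.6 and 33.7. Serpina3e-ps, which was chosen for its 0 values, had the highest mean of the 4, as a description only. The mirror pattern, with no reads under either WT label and a mean of at least 30 under the knockout label, was seen in 133 genes, led by Cacna1e, Pnck, Gm13919, Nxpe1-ps and Foxr1.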

How the data were processed

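Polyadenylated RNA of activated mouse CD8+ T cells was measured in 4 libraries, 2 labelled WT and 2 labelled Irf8 knockout, grouped by their titles and genotype labels. The submitters' processing notes name DESeq2 and the mm10 build, beside StringTie 2.1.4, HISAT2 2.2.1 and Trim Galore 0.4.4. Each tool's setting, like the annotation and strand choice, is not given in the sources used here. Deposited by the authors, per the file headers, were normalized counts (a signal that need not be whole), a log2 fold change and its error, a Wald score, and a raw and an adjusted p-value.

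All values (100% within 0.01 reads) were whole multiples of 1 step per library, so the whole counts before scaling were recovered. They are called reads here. Whether they are counted reads or rounded estimates is not given in the sources used here. Size factors were 0.983, 0.979, 1.02 and 1.03. A count of 0 was taken to allow 3 reads per library at a 95% level, for counting error only. The test was limma 3.58.1 (R 4.3.3), with a variance trend and robust eBayes, on log2(normalized count + 1), for genes with at least 10 in at least 2 libraries, two-sided, with Benjamini-Hochberg adjustment over all genes tested and a threshold of 0.05. This scale understates the change of low genes and can overstate it where 1 library has 0. An exact permutation test of 2 against 2 libraries cannot go below a two-sided p of 0.333, so none was used. Alternatives were pseudocounts of 0.1 and 10, centring of each library on its median, no filter, a minimum of 50, an added log2 difference over 1, each library left out in turn, a replicate block, and edgeR 4.0.16 (TMM or upper-quartile factors) and DESeq2 1.42.0 on the recovered reads.

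The members and all gene lists were chosen with earlier results of these data known. The text names all members, Irf8, other serpins past the threshold or inside the clusters, up to 3 genes in each direction with the smallest adjusted p of the protease and inhibitor lists, and genes with the pattern of Serpina3e-ps. Gzma, Elane, Prtn3, Ctsg, Klk1, the T cell genes quoted and Siglech were named for their role after their values had been seen. The NK cell genes quoted, Ly6g and Il3ra were also named after their values had been seen. Positions, transcripts and lengths came from GENCODE M21 on GRCm38, and promoters from RefSeq.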

Additional observations from a re-analysis of the deposited data

How the results depend on the processing

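Of 18378 genes tested 6131 passed, and 9599 did with each library centred on its median, 2093 with a log2 difference over 1 added, and 3735 to 7011 when 1 library was left out. With a replicate block 5583 genes and 6 members passed. Deviations from the group means correlated at 0.0172 between same-numbered libraries. With 2 libraries per group, this value cannot show whether the replicate numbers pair the libraries. The 7 members that passed became 1 with the added difference, Serpina3e-ps, and the count was 5 to 7 when 1 library was left out. These were not always the same genes: Serpina3e-ps was below the filter if the library left out was labelled WT, Serpinb1a no longer passed, and without replicate 2 labelled WT Serpina3h and Serpina3i passed instead. Serpinb1a reversed to -0.0993 with median centring. It passed as reported, with the other pseudocounts and with a minimum of 50, and under none of the other alternatives. With the added difference the other serpins that passed went from 4 to 2, the target proteases from 28 to 16 and the other inhibitors from 11 to 5. Leaving out 1 library gave 2 to 6 other serpins. The summed clade A3 level left in the libraries labelled knockout was 65.2%, and 68.1% as RPM. For clade B it was 75.0%, and 78.3% as RPM and 76.0% per kilobase of exon union. Depth limits Serpina3e-ps, Serpina3h and Serpina3i, each with fewer than 200 normalized counts.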
